A study of Mus musculus with 16 samples.

Results

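Inguinal lymph nodes draining a flank injected with fixed MC38 cells were compared with naive nodes, which asks how the node responds to dead tumor cells in the absence of tumor growth. MC38 is a mouse colon carcinoma cell line. The comparison rests on the 3 libraries labelled fixed draining (A, B and C) and the 4 labelled naive (A, B, C and D), which are 7 of the 16 libraries of the series and hold 25262 of its 50386 kept cells. The mice of both groups were C57Bl/6, 8 weeks old and sex-matched, and the sex was not given in the sources used here. Fixed draining mice received 500000 paraformaldehyde-fixed MC38 cells under the skin of the lower right flank, and the draining node was taken on day 12. Naive mice received no inoculum, although their labels carry the entry MC38 under cell line as well. Values of nodes from the opposite side of the same treatment (fixed non-draining, 3 libraries) and of nodes draining live MC38 tumors of day 12 (live draining, 3 libraries) are given where they bear on a result. Dissociated cells were enriched for podoplanin (PDPN), a surface protein of fibroblastic and lymphatic endothelial cells, before droplet sequencing of 3′ ends, so every share given here is a share of the enriched suspension and not of the node. The study's methods name 3 mice given fixed cells and the collection of both nodes, but the labels do not tie libraries to mice, and p-values then measure only the spread between these libraries, which may be technical.

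A lymph node is built by fibroblastic reticular cells and by the lymphatic endothelial cells (LECs) that line its sinuses. T-zone reticular cells (TRCs) carry the chemokines Ccl19 and Ccl21a, marginal reticular cells (MRCs) lie under the outer sinus, medullary reticular cells (MedRCs) surround the medullary cords, perivascular reticular cells (PRCs) sit around vessels, and follicular dendritic cells (FDCs) hold antigen for B cells. Ceiling and floor LECs (cLECs and fLECs) form the outer and inner walls of the subcapsular sinus, where lymph from the injected skin arrives, whereas medullary and cortical LECs (MedLECs and CorLECs) line the deeper sinuses. Protein damage induces heat shock chaperones through the factor HSF1, and interferons induce antiviral genes through STAT and IRF factors. Tissue digestion itself is known to induce immediate early and heat shock genes.

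The 7 libraries held 24402526 to 32580407 unique molecular identifiers (UMIs) in fixed draining nodes and 24094935 to 32918088 in naive nodes. After cells with 200 to 6000 genes and at most 30% mitochondrial UMIs were kept, fixed draining libraries had 3972, 3366 and 3347 cells, and naive libraries had 4806, 3238, 3356 and 3177. The mitochondrial limit alone removed 1298 to 1481 barcodes per fixed draining library and 586 to 814 per naive library. Kept cells had a median of 5.99% to 6.28% mitochondrial UMIs in fixed draining and 4.70% to 5.42% in naive libraries. Any pair among the 16 libraries shared at most 10 cell barcodes. Over all kept cells, Krt8, Krt18, Krt19, Cdh1 and Cldn7, genes of epithelial tumor cells, were each under 1 count per 1000000 UMIs (CPM) in all 7 libraries. Such a value cannot show that a few positive cells are absent. Krt8 was found in the 10 keratin-positive cells of fixed draining libraries described with the pericyte class. Cell classes were called from markers and carry the ending -like where clusters were named here. Clusters with mixed markers of MRCs, B-zone reticular cells and FDCs were left unnamed.

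Within each class, UMIs were summed per library and tested with edgeR, and a gene was called at an adjusted p under 0.05 over all genes tested in that class. MedRC-like cells had 485 of 11476 genes called (4.23%), of which 278 were higher (2.42%) and 207 lower (1.8%) in fixed draining nodes. Macrophages and monocytes had 217 of 10968 called (1.98%), with 75 higher (0.684%) and 142 lower (1.29%). In the sinus-lining classes, cLEC-like cells had 194 of 11876 (1.63%), 70 higher (0.589%) and 124 lower (1.04%), MedLEC-like cells 113 of 11103 (1.02%), 40 higher (0.36%) and 73 lower (0.657%), and fLEC-like cells 84 of 10264 (0.818%), 26 higher (0.253%) and 58 lower (0.565%). TRC-like cells had 85 of 12055 (0.705%), 51 higher (0.423%) and 34 lower (0.282%), PRC-like cells 41 of 7573 (0.541%), 15 higher (0.198%) and 26 lower (0.343%), and MRC-like cells 20 of 9675 (0.207%), 9 higher (0.093%) and 11 lower (0.114%). CorLEC-like cells had 40 of 7834 (0.511%), 29 higher (0.37%) and 11 lower (0.14%), B cells 38 of 9118 (0.417%), 14 higher (0.154%) and 24 lower (0.263%), and T cells 10 of 6555 (0.153%), 6 higher (0.0915%) and 4 lower (0.061%). The libraries of the groups did not overlap, in either direction, for 18.5% of all genes tested in MedRC-like cells, 14.9% in macrophages and monocytes, 14% in MedLEC-like, 13.5% in CorLEC-like, 13.2% in cLEC-like, 11.1% in PRC-like, 11% in B cells, 10.7% in TRC-like, 8.71% in fLEC-like, 8.62% in BECs, 8.25% in T cells and 8.19% in MRC-like cells. In blood endothelial cells (BECs), 0 of 6253 genes were called by edgeR (0%) and 0 by DESeq2, with 306 at an unadjusted p under 0.05. The counts depended on single libraries and on the mitochondrial limit. Without fixed draining library B, 187 genes were called in MedRC-like cells, 103 in cLEC-like cells and 55 in macrophages and monocytes, and without fixed draining library A, 37 in MedLEC-like, 42 in fLEC-like and 45 in TRC-like cells. With at most 10% mitochondrial UMIs per cell, 267 were called in MedRC-like cells and 60 in macrophages and monocytes. Classes differed in cells and depth, and counts of calls were not compared between classes.

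**Figure D1:**
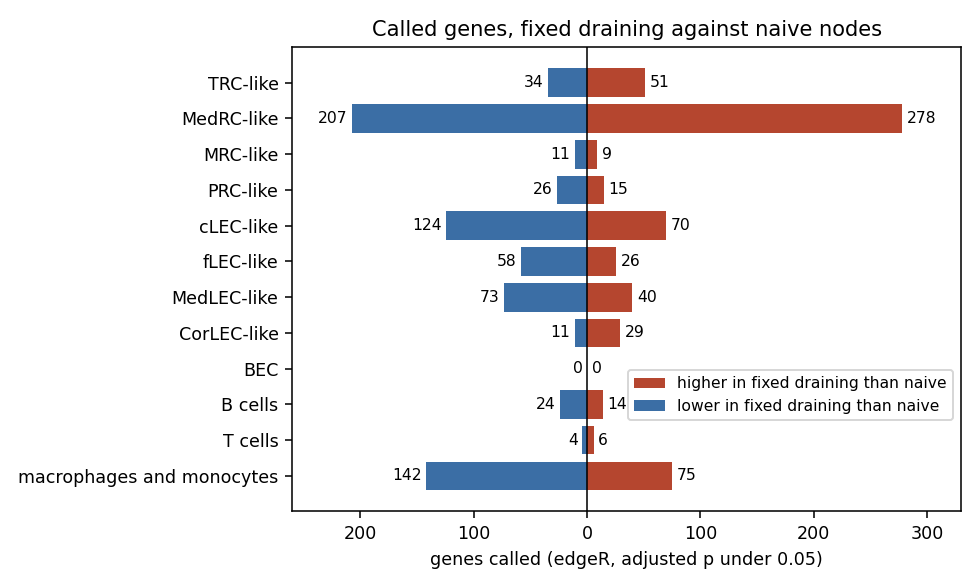
Number of genes called in each of 12 cell classes (rows) in fixed draining against naive nodes, with genes higher in fixed draining nodes to the right of 0 and genes lower to the left (edgeR, adjusted p under 0.05). MedRC-like cells had 278 higher and 207 lower, and blood endothelial cells had 0.

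Heat shock chaperones, which fold damaged proteins, were lower in fixed draining nodes in sinus-lining LECs and in macrophages. Of 13 listed chaperones and co-chaperones measured in each of these classes, 12 fell in cLEC-like cells (median log2 fold change -0.84, against 0.00 over all genes tested), 11 in fLEC-like cells (-0.70), 11 in macrophages and monocytes (-0.88) and 9 in MedLEC-like cells (-0.64). No member was called higher in any of the 12 classes. In the other classes, 3 members fell in PRC-like cells, 3 of 12 in B cells, 3 of 12 in T cells, 2 in MRC-like cells, 1 in CorLEC-like cells, 1 in MedRC-like cells and 0 in TRC-like cells and BECs. The fLEC-like cluster in which Hspa1a and Hspa1b were among the leading genes made up 34.0% of the class in fixed draining and 42.8% in naive nodes, and a like one of MedLEC-like cells 19.9% and 25.6%, and the part of this mix was not tested. Genes of this list are among those that tissue digestion induces, and the part of digestion in these differences was not tested.

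Hspa1a encodes an inducible chaperone of the Hsp70 family. In cLEC-like cells it had 218, 202 and 224 CPM in fixed draining libraries, against 699, 1029, 805 and 931 CPM in naive libraries. All fixed draining libraries lay below all naive ones, and the log2 fold change was -2.01 ± 0.16 (SE, edgeR adjusted p = 4.4e-10). Hspb1, a small heat shock protein, had 186, 134 and 161 CPM in fLEC-like cells of fixed draining libraries, against 583, 558, 607 and 574 CPM in naive libraries (log2 fold change -1.84 ± 0.11, edgeR adjusted p = 2.4e-14). The same gene had 52.7, 34.1 and 30.2 CPM in macrophages and monocytes of fixed draining libraries, against 123, 146, 107 and 275 CPM in naive libraries (-2.00 ± 0.30, edgeR adjusted p = 0.0015), with naive library D the highest. The groups did not overlap for Hspb1 in either class. In B cells, Hspa1a had 48.9, 91.2 and 85.1 CPM in fixed draining libraries, against 311, 165, 207 and 305 CPM in naive libraries (-1.75 ± 0.22, edgeR adjusted p = 0.00011). Hspa1a and its neighbour Hspa1b are nearly identical in sequence, so how reads were split between them is uncertain.

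The promoters of Hspa1a and Hspb1 are shown because the chaperones moved together. Capitals mark the heat shock element GAANNTTC, which HSF1 binds, searched on both strands of the 300 bases from 250 before to 50 after each RefSeq start (GRCm38.p6). Only the 250 bases before the start are printed, in the direction of transcription.
Hspa1a (chr17:34972157-34972406, minus strand): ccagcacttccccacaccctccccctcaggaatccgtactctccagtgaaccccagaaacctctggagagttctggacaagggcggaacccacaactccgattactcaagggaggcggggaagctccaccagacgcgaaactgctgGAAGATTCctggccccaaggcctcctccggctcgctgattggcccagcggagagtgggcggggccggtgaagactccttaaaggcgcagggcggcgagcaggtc
Hspb1 (chr5:135887669-135887918, plus strand): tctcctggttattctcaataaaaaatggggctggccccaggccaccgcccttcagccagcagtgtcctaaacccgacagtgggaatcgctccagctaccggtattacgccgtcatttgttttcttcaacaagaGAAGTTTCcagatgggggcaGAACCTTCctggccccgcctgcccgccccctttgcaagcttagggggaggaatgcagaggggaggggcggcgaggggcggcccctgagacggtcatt
The element was in the 300-base window of 8 of the 10 listed chaperones that matched a RefSeq promoter. Among all 27025 genes with such a promoter, 9.04% had it. Hspe1 and Hspd1, both counted among the 8, have overlapping windows and share the same element. Hspa1a had 1 match, at position -104 from its start, and Hspb1 had 2, the first at position -117. A match describes these letters and not binding. Both genes are protein-coding in the gencode vM21 annotation of GRCm38, Hspa1a at chr17:34969190-34972156 on the minus strand and Hspb1 at chr5:135887919-135889563 on the plus strand.

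The list of heat shock chaperones was also lower in fixed non-draining nodes, a comparison that shares the naive libraries. There 13 of 13 members fell in cLEC-like cells (median -1.29, 2.55% of all genes called), 12 in fLEC-like cells (-1.53, 0.926%), 11 in MedLEC-like cells (-1.15, 0.468%) and 11 in macrophages and monocytes (-1.42, 13.6%). In the direct comparison of fixed draining with fixed non-draining nodes, 6 of 13 were higher in cLEC-like cells (median 0.42, 0.480% of all genes called), 5 in fLEC-like cells (0.56, 0.166%), 3 in macrophages and monocytes (0.50, 4.07%) and 1 in MedLEC-like cells (0.063%), and none was lower. Live draining nodes had 13 of 13 members lower than naive nodes in cLEC-like cells (median -0.94, 23.5% of all genes called) and 13 in fLEC-like cells (-1.22, 27.9%). Whether naive nodes were digested on the same days as the others was not given in the sources used here, and an effect of such a day and one of the inoculum cannot be told apart.

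**Figure D2:**
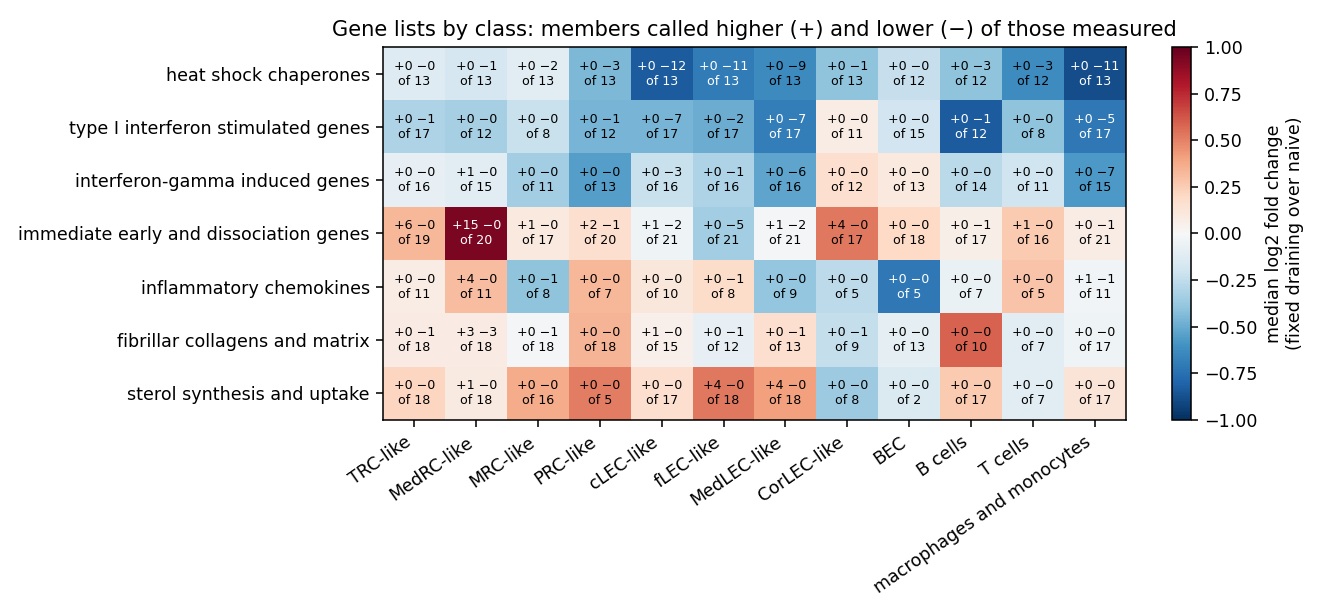
Median log2 fold change (colour scale) of 7 gene lists (rows) in 12 cell classes (columns) for fixed draining against naive nodes, with the numbers of members called higher (+) and lower (−) of those measured printed in each square. The heat shock list reads 0 higher and 12 lower in cLEC-like cells, and the immediate early list 15 higher and 0 lower in MedRC-like cells.

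Some interferon-stimulated genes were also lower in fixed draining nodes, in LECs and in macrophages among others. Of 17 listed type I interferon stimulated genes, 7 fell in MedLEC-like cells (median log2 fold change -0.69), 7 in cLEC-like cells (-0.47), 5 in macrophages and monocytes (-0.71) and 2 in fLEC-like cells (-0.49), where the median over all genes was between -0.01 and 0.01. A single member fell in TRC-like cells (of 17), in PRC-like cells (of 12) and in B cells (of 12), and no member rose in any of the 12 classes. Of the genes listed as induced by interferon-gamma, 7 of 15 fell in macrophages and monocytes (median -0.57), 6 of 16 in MedLEC-like cells (-0.53), 3 of 16 in cLEC-like cells (-0.22) and 1 of 16 in fLEC-like cells (-0.31). The exception was Gbp5, a guanylate-binding protein, which rose in MedRC-like cells.

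Isg15, a ubiquitin-like protein that interferon induces, had 136, 79.8 and 130.0 CPM in MedLEC-like cells of fixed draining libraries, against 236, 339, 322 and 320.3 CPM in naive libraries. Its groups did not overlap, and the log2 fold change was -1.39 ± 0.16 (SE, edgeR adjusted p = 6.5e-05). Ifi27l2a, another interferon-induced gene, had 114, 115 and 103 CPM in MedLEC-like cells of fixed draining libraries, against 394, 396, 308 and 377 CPM in naive libraries (-1.74 ± 0.26, edgeR adjusted p = 0.00059). Iigp1, a GTPase of interferon-gamma responses, had 299.9, 326 and 357 CPM in the same cells of fixed draining libraries, against 538, 589, 596 and 514 CPM in naive libraries (-0.77 ± 0.11, edgeR adjusted p = 0.00023). Each of these genes was lower in every fixed draining library than in any naive one. The MedLEC-like class held several clusters, and the one led by Bmp2, Gria3 and Kcnj2 made up 61.4% of its cells in fixed draining and 40.3% in naive nodes. The clusters led by Marco made up 9.9% and 8.73% of its cells in fixed draining nodes, and 18.9% and 15.2% in naive nodes. In the clusters led by Marco alone, which have fewer cells, 4 genes were called and not 113. Of the named values of this class, 1 stayed called there, 10 missed the threshold and 2 were reversed. The results given here are thus those of the joined class, and the part of its mix was not tested.

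In cLEC-like cells, Rtp4, an interferon-induced chaperone of receptors, had 48.3, 50.5 and 50.1 CPM in fixed draining libraries, against 92.3, 87.8, 86.2 and 89.2 CPM in naive libraries (log2 fold change -0.85 ± 0.10, edgeR adjusted p = 5.4e-07). Both groups were tight, and they did not overlap. Bst2, which tethers enveloped viruses, had 387, 371 and 359 CPM in macrophages and monocytes of fixed draining libraries, against 575, 582, 734 and 552 CPM in naive libraries (-0.71 ± 0.12, edgeR adjusted p = 0.0024). Cxcl10, a chemokine that attracts activated T cells, had 166, 115 and 47.3 CPM in macrophages and monocytes of fixed draining libraries, against 188, 286, 399.9 and 378 CPM in naive libraries (-1.48 ± 0.35, edgeR adjusted p = 0.030). In B cells, Ifi27l2a had 222, 196 and 234 CPM in fixed draining libraries, against 529, 735, 414 and 390.0 CPM in naive libraries (-1.25 ± 0.19, edgeR adjusted p = 0.00066). In fLEC-like cells, Isg15 had 100.2, 152 and 105 CPM in fixed draining libraries, against 168, 187, 333 and 127 CPM in naive libraries (-0.80 ± 0.19, edgeR adjusted p = 0.024), so there the groups overlapped.

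The promoters of Isg15 and Ifit1, an inhibitor of viral RNA translation, are shown as those of 2 listed interferon-stimulated genes. Capitals mark GAAANNGAAA, the core of the interferon-stimulated response element, or its reverse complement TTTCNNTTTC, in the same window.
Isg15 (chr4:156200819-156201068, minus strand): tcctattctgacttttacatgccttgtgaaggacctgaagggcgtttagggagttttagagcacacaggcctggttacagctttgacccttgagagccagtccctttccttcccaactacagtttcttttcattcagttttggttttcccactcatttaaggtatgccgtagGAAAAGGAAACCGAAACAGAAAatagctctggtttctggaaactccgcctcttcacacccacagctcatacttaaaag
Ifit1 (chr19:34640639-34640888, plus strand): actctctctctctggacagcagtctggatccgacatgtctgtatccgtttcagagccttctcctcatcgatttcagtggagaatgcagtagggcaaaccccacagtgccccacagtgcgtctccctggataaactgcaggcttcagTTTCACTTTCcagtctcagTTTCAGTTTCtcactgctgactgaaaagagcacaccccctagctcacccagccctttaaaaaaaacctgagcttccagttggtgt
The core was in 8 of the 13 listed genes that matched a RefSeq promoter and in 3.99% of all genes with such a promoter. Isg15 had 3 matches, which overlap, the first at position -78, and Ifit1 had 2, the first at position -104. Isg15 lies at chr4:156199424-156200818 on the minus strand and Ifit1 at chr19:34640871-34650009 on the plus strand. In TRC-like cells, Ifit1 had 6.91, 4.50 and 10.9 CPM in fixed draining libraries, against 18.3, 13.8, 19.8 and 14.6 CPM in naive libraries (log2 fold change -1.18 ± 0.25, edgeR adjusted p = 0.012).

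Interferon-stimulated genes of macrophages and monocytes also differed between the sides of the treated mice. In the direct comparison of fixed draining with fixed non-draining nodes, 15 of 17 type I interferon stimulated genes were lower in macrophages and monocytes (median -1.47), 4 in cLEC-like cells (-0.38) and 1 in MedLEC-like cells, and none was higher. Fixed non-draining nodes, which share the naive libraries, had 10 of 17 higher and 1 lower than naive nodes in macrophages and monocytes (median 0.78), and 0 called in cLEC-like, fLEC-like and MedLEC-like cells. Irf7, a factor that amplifies the interferon response, had 246, 168 and 143 CPM in macrophages and monocytes of fixed draining libraries, 816, 880 and 568 CPM in fixed non-draining libraries, and 252, 350, 353 and 334 CPM in naive libraries. Its log2 fold change was -2.02 ± 0.18 against fixed non-draining nodes (edgeR adjusted p = 5.4e-07) and -0.78 ± 0.16 against naive nodes (edgeR adjusted p = 0.015). Live draining nodes had 17 of 17 genes of the list higher than naive nodes in MedLEC-like cells (median 1.16, 19.9% of all genes called) and 17 in fLEC-like cells (1.93).

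**Figure D3:**
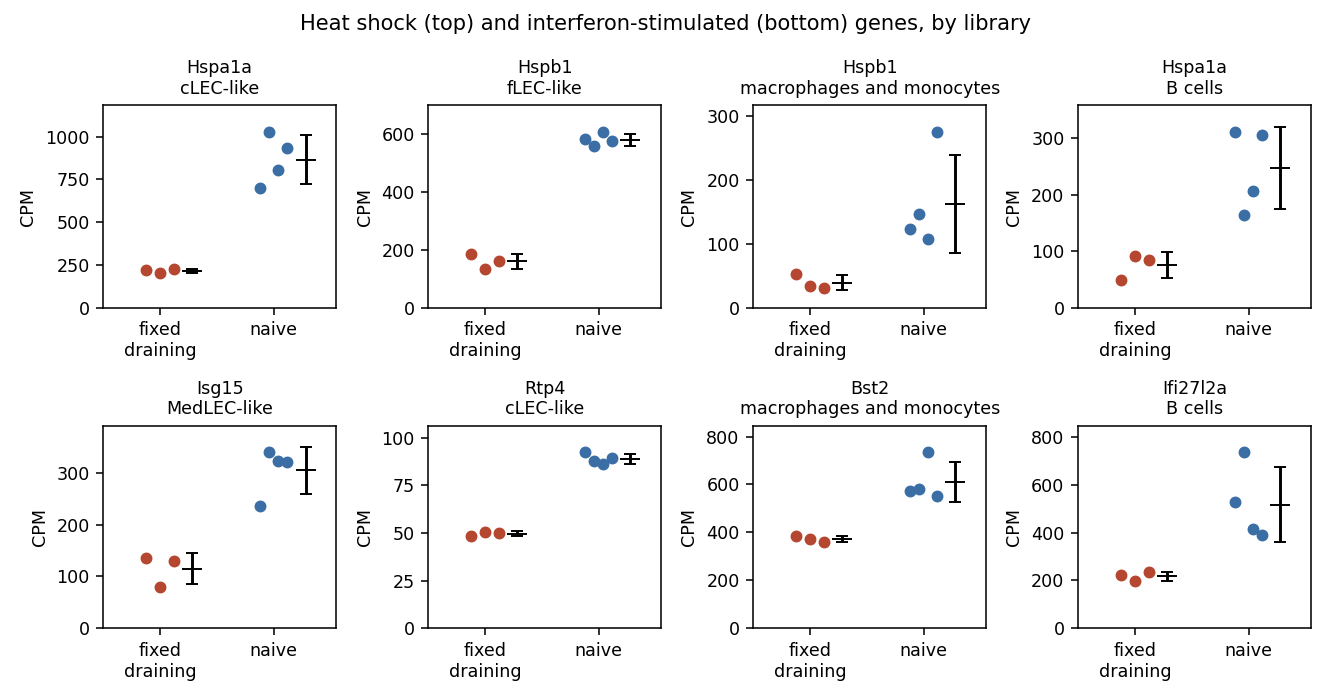
Level in CPM (vertical axis, each panel starting at 0) of 4 heat shock values (upper row) and 4 interferon-stimulated values (lower row), with 1 point per library, fixed draining left of naive, and the mean with bars of 1 SD beside the points. The panels are Hspa1a in cLEC-like cells, Hspb1 in fLEC-like cells and in macrophages and monocytes, Hspa1a in B cells, Isg15 in MedLEC-like cells, Rtp4 in cLEC-like cells, Bst2 in macrophages and monocytes and Ifi27l2a in B cells, and in each of them all fixed draining points lie below all naive points.

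In MedRC-like cells, most listed immediate early genes rose. Of 20 listed immediate early genes, 15 rose and none fell (median log2 fold change 0.94, against 0.00 over all genes tested). Cyr61, a matrix-associated signalling protein, had 499.8, 491 and 579 CPM in fixed draining libraries, against 50.2, 27.1, 52.7 and 80.6 CPM in naive libraries (3.31 ± 0.21, SE, edgeR adjusted p = 2e-14). Egr1, a factor that growth signals switch on, had 694, 727 and 642 CPM in fixed draining libraries, against 264, 249.5, 307 and 275 CPM in naive libraries (1.33 ± 0.11, edgeR adjusted p = 9.7e-11). Both genes were higher in every fixed draining library than in any naive one. Carmn, a long noncoding RNA of contractile cells, had 161, 169 and 150.2 CPM in fixed draining libraries, against 49.6, 49.9, 49.8 and 38.7 CPM in naive libraries (1.77 ± 0.11, edgeR adjusted p = 2.8e-15).

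Of 11 listed inflammatory chemokines, Ccl2, Ccl7, Cxcl10 and Cx3cl1 rose in MedRC-like cells (list median 0.31) and none fell. Ccl2, which recruits monocytes, had 288, 191 and 213 CPM in fixed draining libraries, against 69.8, 48.1, 119 and 104 CPM in naive libraries (log2 fold change 1.45 ± 0.24, edgeR adjusted p = 0.0001). Cxcl10 had 75.9, 45.8 and 43.1 CPM in fixed draining libraries, against 38.0, 13.2, 34.2 and 13.7 CPM in naive libraries (1.16 ± 0.26, edgeR adjusted p = 0.0056), which is the opposite direction to its change in macrophages and monocytes. Whether the changes of the classes differ was not tested. Cxcl13, which attracts B cells, was lower in MedRC-like cells, with 1339, 1545 and 1438 CPM in fixed draining libraries, against 2213, 2168, 2445 and 1649 CPM in naive libraries (-0.56 ± 0.12, edgeR adjusted p = 0.0026).

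The matrix list did not move one way in MedRC-like cells, where 3 of 18 genes rose and 3 fell (median 0.08). Thbs1, which encodes thrombospondin-1 of the matrix, had 153, 175 and 95.5 CPM in fixed draining libraries, against 60.2, 38.1, 47.7 and 41.6 CPM in naive libraries (log2 fold change 1.60 ± 0.16, edgeR adjusted p = 5.9e-09). Dcn, decorin, had 10422, 10150.1 and 9695 CPM in fixed draining libraries, against 14571, 14695, 14709 and 15372 CPM in naive libraries (-0.56 ± 0.09, edgeR adjusted p = 7.4e-05). Neither gene overlapped between the groups. Among matrix proteases and their inhibitors, 3 of 12 rose and 1 fell, and the one that fell was Mmp2, a gelatinase, with 176, 177 and 165 CPM in fixed draining libraries, against 221, 219, 227 and 219.9 CPM in naive libraries (-0.36 ± 0.08, edgeR adjusted p = 0.0088). Mfge8, which bridges dying cells to phagocytes, had 2339, 2407 and 2474 CPM in fixed draining libraries, against 1524, 1326, 1907 and 1531 CPM in naive libraries (0.62 ± 0.11, edgeR adjusted p = 0.00067). It was the only called gene among 11 measured genes of dead cell clearance in these cells. Mfge8 is also a marker by which FDC-like cells were named. Its mean in FDC-like cells was 22093.1 CPM in fixed draining and 23793.5 CPM in naive libraries. The part of free RNA or mixed cells in its MedRC-like values was not tested. Figf, also named Vegfd, a growth factor of lymphatic vessels, had 42.7, 32.2 and 32.4 CPM in fixed draining libraries, against 48.9, 64.9, 52.7 and 71.6 CPM in naive libraries (-0.73 ± 0.15, edgeR adjusted p = 0.0022).

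Genes that lead the MedRC-like clusters were among those called. Of 19 such genes 10 were called, Dcn among them, and the cluster led by Stc1, Inmt and Ptn made up 10.9% of the class in fixed draining and 24.3% in naive nodes. The part of this mix in the MedRC-like differences was not tested. Fixed non-draining nodes, which share the naive libraries, had 7 of 20 immediate early genes higher than naive nodes in MedRC-like cells (median 0.34, 1.60% of all genes called), and 1 of 20 was higher in fixed draining than in fixed non-draining nodes (median 0.31, 0.157%).

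In TRC-like cells, 6 of 19 immediate early genes rose and none fell (median 0.34). Cyr61 had 522, 461 and 448 CPM in TRC-like cells of fixed draining libraries, against 222, 251, 223 and 199.9 CPM in naive libraries (log2 fold change 1.09 ± 0.13, edgeR adjusted p = 1.7e-06). Ubd, a ubiquitin-like protein that cytokines induce, had 157, 211 and 120.1 CPM in fixed draining libraries, against 107, 94.7, 95.4 and 80.7 CPM in naive libraries (0.79 ± 0.13, edgeR adjusted p = 0.00076). Timd4, a receptor for phosphatidylserine on dying cells, was lower, with 39.2, 29.8 and 37.9 CPM in fixed draining libraries, against 77.0, 50.8, 56.2 and 77.4 CPM in naive libraries (-0.87 ± 0.15, edgeR adjusted p = 0.0012). None of the 9 measured homeostatic chemokines and lymphocyte survival factors was called. Ccl21a, which guides T cells and dendritic cells, had 33099, 31173 and 31506 CPM in fixed draining libraries, against 31585, 32335, 31034 and 30748 CPM in naive libraries, so its groups overlapped (0.02 ± 0.06, edgeR adjusted p = 0.93).

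Madcam1, an adhesion molecule that marks MRCs, had 240.1, 300.2 and 252 CPM in MRC-like cells of fixed draining libraries, against 126, 162, 75.7 and 75.6 CPM in naive libraries (log2 fold change 1.25 ± 0.18, edgeR adjusted p = 9.4e-05). Serpinf1, which inhibits vessel growth, had 80.0, 87.9 and 65.8 CPM in MRC-like cells of fixed draining libraries, against 158, 159.7, 179.9 and 137 CPM in naive libraries (-1.02 ± 0.15, edgeR adjusted p = 9.1e-05). Both separated the groups, and Madcam1 is also a marker by which the class was named. In PRC-like cells, Col15a1, a basement membrane collagen, had 446, 339 and 373 CPM in fixed draining libraries, against 195, 209, 136 and 255 CPM in naive libraries (0.96 ± 0.20, edgeR adjusted p = 0.022). Sfrp2, a secreted Wnt modulator, was lower in PRC-like cells, with 47.4, 77.6 and 126 CPM in fixed draining libraries, against 359.6, 572, 318 and 191 CPM in naive libraries (-2.12 ± 0.41, edgeR adjusted p = 0.012). C4b, a complement component, was lower too, with 675, 532 and 666 CPM in fixed draining libraries, against 1068, 1391, 911 and 1156 CPM in naive libraries (-0.86 ± 0.17, edgeR adjusted p = 0.015). No fixed draining library reached the naive range for Sfrp2 or C4b.

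**Figure D4:**
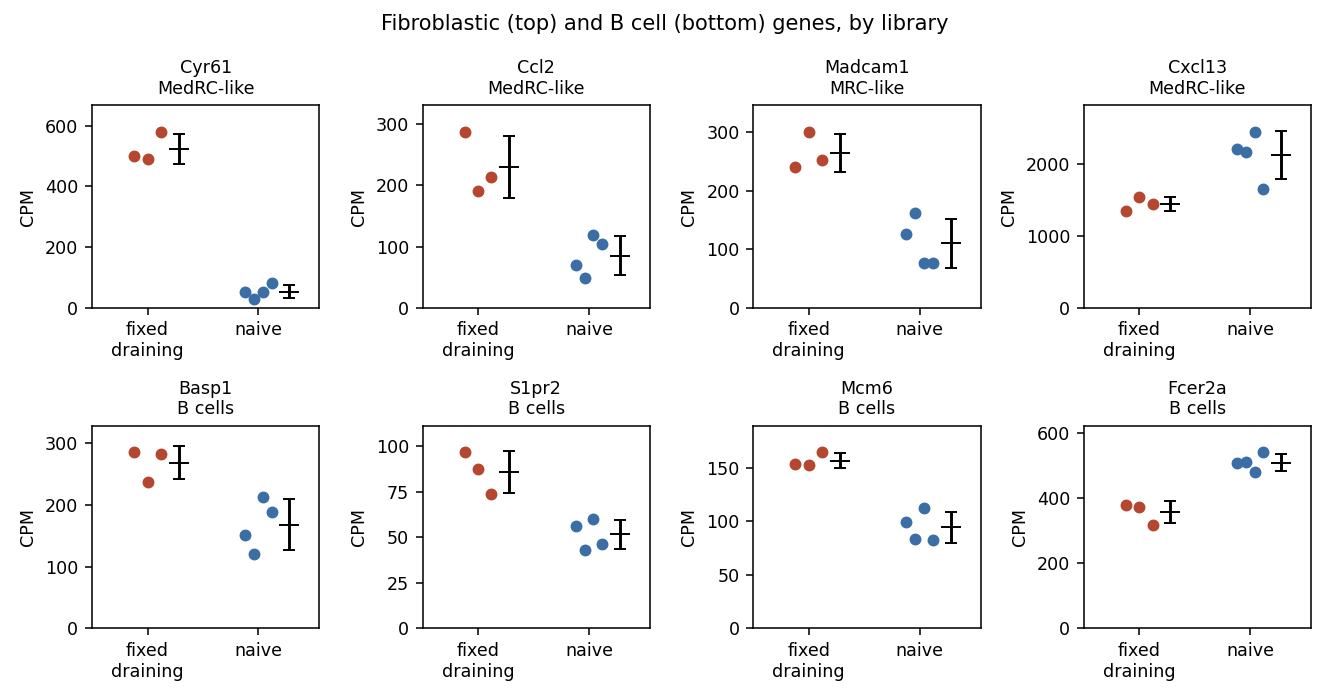
Level in CPM (vertical axis, each panel starting at 0) of Cyr61, Ccl2 and Cxcl13 in MedRC-like cells and Madcam1 in MRC-like cells (upper row) and of Basp1, S1pr2, Mcm6 and Fcer2a in B cells (lower row), with 1 point per library, fixed draining left of naive, and the mean with bars of 1 SD beside the points. Cyr61 lies between 491 and 579 CPM in fixed draining and between 27.1 and 80.6 CPM in naive libraries, and Fcer2a and Cxcl13 are lower in fixed draining libraries.

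Fn1, Ldha and Pkm, which the study follows and which encode fibronectin and the glycolytic enzymes lactate dehydrogenase and pyruvate kinase, passed the test in 0 of the 8 stromal classes. Of the listed genes of glycolysis and hypoxia, 2 of 15 tested rose in MedRC-like cells and 0 in the other 7 stromal classes, and 0 fell in any of the 8. Ldha had 162, 159.7 and 166 CPM in cLEC-like cells of fixed draining libraries, against 170.4, 159.5, 170.2 and 171 CPM in naive libraries, so the groups overlapped (log2 fold change -0.05 ± 0.07, edgeR adjusted p = 0.85). Fn1 had 1048, 1545 and 1294 CPM in PRC-like cells of fixed draining libraries, against 2378, 2447, 3198 and 2572 CPM in naive libraries, a difference that separated the groups but missed the threshold (-1.03 ± 0.31, edgeR adjusted p = 0.14). Ccl20, a chemokine that attracts cells bearing CCR6, had 823, 902 and 1031 CPM in fLEC-like cells of fixed draining libraries, against 709.5, 767, 649 and 478 CPM in naive libraries, and it too missed the threshold (0.47 ± 0.13, edgeR adjusted p = 0.070).

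Klf2 was called in 5 of the 12 classes, lower in fLEC-like and MedLEC-like cells among them. It encodes a factor that fluid flow induces in endothelium. Klf2 had 99.7, 166 and 116 CPM in fLEC-like cells of fixed draining libraries, against 407, 531, 518 and 374 CPM in naive libraries (log2 fold change -1.88 ± 0.13, edgeR adjusted p = 2.4e-12). In MedLEC-like cells it had 186, 268 and 176 CPM in fixed draining libraries, against 423, 447, 489.7 and 473 CPM in naive libraries (-1.13 ± 0.20, edgeR adjusted p = 0.0033). Klf2 was also called lower in B cells (-0.88) and in macrophages and monocytes (-0.92), and higher in MedRC-like cells (0.80), and it is one of the genes that digestion induces. Cyr61 was lower in fLEC-like cells, in contrast to the reticular cells, with 182, 80.9 and 177 CPM in fixed draining libraries, against 268, 478, 373 and 347 CPM in naive libraries (-1.30 ± 0.19, edgeR adjusted p = 3.9e-05). Of 21 immediate early genes in fLEC-like cells 5 fell and none rose (median -0.35), whereas 4 of 17 rose and none fell in CorLEC-like cells (median 0.53).

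Genes of sterol synthesis and uptake, a list added after the data had been seen, rose in 4 of 18 members in fLEC-like cells (median 0.53) and in 4 of 18 in MedLEC-like cells (median 0.41), and none fell in either. Msmo1, an enzyme of cholesterol synthesis, had 110.0, 111 and 100.0 CPM in fLEC-like cells of fixed draining libraries, against 58.6, 86.3, 58.2 and 63.6 CPM in naive libraries (log2 fold change 0.68 ± 0.14, edgeR adjusted p = 0.0054). It was higher in every fixed draining library than in any naive one. Pthlh, a secreted hormone-like peptide, also rose in fLEC-like cells, with 67.7, 80.1 and 98.3 CPM in fixed draining libraries, against 52.7, 48.9, 22.6 and 38.2 CPM in naive libraries (0.91 ± 0.20, edgeR adjusted p = 0.014). In MedLEC-like cells Stab2, a scavenger receptor, was lower, with 261, 276 and 265 CPM in fixed draining libraries, against 402, 415, 334 and 435 CPM in naive libraries (-0.57 ± 0.13, edgeR adjusted p = 0.027).

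In cLEC-like cells, Dusp1 and Nfkbia rose. Dusp1, a phosphatase that ends MAP kinase signals, had 553, 567 and 493 CPM in fixed draining libraries, against 299.6, 329, 364 and 374 CPM in naive libraries (log2 fold change 0.66 ± 0.07, edgeR adjusted p = 3.2e-07). Nfkbia, the inhibitor that NF-kB induces, had 465, 411 and 481 CPM in cLEC-like cells of fixed draining libraries, against 284, 357, 304 and 309.9 CPM in naive libraries (0.53 ± 0.08, edgeR adjusted p = 0.00022). Nfkbia was also called higher in fLEC-like (0.40) and MedLEC-like cells (0.57). In CorLEC-like cells, Cxcl13 had 124, 127 and 153 CPM in fixed draining libraries, against 75.8, 55.0, 49.4 and 66.3 CPM in naive libraries (1.09 ± 0.20, edgeR adjusted p = 0.0019). Ighm, an antibody gene of B cells, rose in the same CorLEC-like cells, with 86.7, 71.7 and 63.8 CPM in fixed draining libraries, against 37.9, 36.7, 33.6 and 29.9 CPM in naive libraries (1.12 ± 0.27, edgeR adjusted p = 0.036). Over all kept cells, Ighm was between 2911 and 3280 CPM in fixed draining and between 1223 and 2264 CPM in naive libraries, and the part of free RNA in the CorLEC-like values was not tested.

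In B cells, 14 genes were called higher and 24 lower in fixed draining nodes. Basp1, a membrane protein, had 285, 238 and 282 CPM in fixed draining libraries, against 151, 120.1, 213 and 189 CPM in naive libraries (log2 fold change 0.69 ± 0.14, edgeR adjusted p = 0.014). S1pr2, a receptor that confines germinal center B cells, had 96.5, 87.2 and 73.8 CPM in fixed draining libraries, against 56.3, 43.1, 60.0 and 46.5 CPM in naive libraries (0.74 ± 0.17, edgeR adjusted p = 0.049). Mcm6, of the DNA replication helicase, had 154, 153 and 165 CPM in fixed draining libraries, against 99.9, 83.2, 113 and 83.0 CPM in naive libraries (0.73 ± 0.15, edgeR adjusted p = 0.017). All of these separated the groups. Fcer2a, a receptor of follicular B cells, was lower, with 380.4, 373 and 318 CPM in fixed draining libraries, against 507, 511, 479.9 and 541 CPM in naive libraries (-0.52 ± 0.12, edgeR adjusted p = 0.041).

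Counted by list, 2 of 15 germinal center and B cell activation genes rose and 1 fell in B cells (median 0.19), and 1 of 19 cell cycle genes rose and none fell. The B cell class joined a deep cluster led by Ms4a1 and Cd79a and a shallow one led by Bank1 and Ighd. The deep cluster held 92, 56 and 126 cells in fixed draining libraries, against 88, 53, 51 and 56 cells in naive libraries, and the shallow one held 193, 145 and 149 cells in fixed draining libraries, against 281, 246, 228 and 232 cells in naive libraries. The part of this mix in the B cell differences was not tested. Ighg2b, a class-switched heavy chain, had 282, 410.3 and 239.8 CPM in fixed draining libraries, against 211, 95.5, 156 and 43.1 CPM in naive libraries (log2 fold change 1.25 ± 0.27, edgeR adjusted p = 0.022). With clusters from LogNormalize in place of SCTransform, its log2 fold change was -0.18.

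Plasma cells were few, with 41, 38 and 32 cells in fixed draining libraries, against 16, 20, 19 and 18 cells in naive libraries. Ighm made up 83.8%, 64.0% and 88.4% of their heavy chain UMIs in fixed draining libraries, against 84.7%, 79.1%, 87.8% and 70.8% in naive libraries, so the groups overlapped. Ighg1 had 34, 1 and 3480 UMIs in fixed draining libraries, against 0 UMIs in each naive library, and nearly all of them came from fixed draining library C. In fixed draining library B, Ighg3 was 33.0% of the heavy chain UMIs. In each case 1 cell had that chain as its main one, of 32 plasma cells in library C and of 38 in library B. In a comparison added after the data had been seen, 5 of 4129 genes were called in plasma cells (0.121%), namely Hspa1a, Hspa1b, Hsp90aa1, Hspd1 and the co-chaperone Dnajb1, all lower in fixed draining nodes. The same test in FDC-like cells called 1 of 3701 genes (0.027%), mt-Nd3, which was higher.

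Few genes were called in T cells. Egr1, an immediate early gene that T cell receptor signals and others induce, had 150.0, 160.2 and 134 CPM in fixed draining libraries, against 53.8, 37.2, 56.3 and 40.4 CPM in naive libraries (log2 fold change 1.64 ± 0.28, edgeR adjusted p = 0.0055). Egr1 was called higher in 3 of the 12 classes, and the part of digestion in its change was not tested. Apol7c had 76.3, 93.7 and 57.7 CPM in T cells of fixed draining libraries, against 15.99, 12.4, 6.82 and 20.2 CPM in naive libraries (2.44 ± 0.45, edgeR adjusted p = 0.011). Both separated the groups, and Apol7c is a leading gene of dendritic cell clusters.

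Macrophages and monocytes, besides lower chaperones and interferon-stimulated genes, had more Itgax, which encodes the integrin CD11c. It had 145, 174 and 153 CPM in fixed draining libraries, against 93.9, 104, 81.6 and 80.4 CPM in naive libraries (log2 fold change 0.80 ± 0.15, edgeR adjusted p = 0.0086). Cd86, a costimulatory ligand, was lower, with 115, 112 and 108 CPM in fixed draining libraries, against 169, 164, 160.5 and 144 CPM in naive libraries (-0.51 ± 0.11, edgeR adjusted p = 0.022). The groups did not overlap for either gene. Mmp12, a macrophage elastase, had 160.4, 105 and 101 CPM in fixed draining libraries, against 34.2, 72.1, 37.4 and 39.5 CPM in naive libraries (1.45 ± 0.30, edgeR adjusted p = 0.015), but -0.54 with clusters from LogNormalize. Madcam1, a gene of stromal cells, had 64.4, 71.3 and 72.8 CPM in these cells of fixed draining libraries, against 26.1, 25.4, 22.4 and 30.5 CPM in naive libraries (1.41 ± 0.23, edgeR adjusted p = 0.0021). The part of free RNA or mixed cells in the Madcam1 values was not tested. The class of macrophages and monocytes joined several clusters. The one led by Lyz2, Lyz1 and Pla2g2d made up 25.05% of its cells in fixed draining and 31.9% in naive nodes. The one led by Fgr and Ptprc made up 27.5% and 22.5%. Of 30 genes leading clusters of this class 3 were called. The part of this mix in these differences was not tested. In the cluster led by C1qa alone, which has fewer cells, 24 genes were called and not 217.

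The same test was run in 2 dendritic cell clusters chosen after the data had been seen. In Fscn1-led dendritic cells, which resemble migratory ones, 167 of 9307 genes were called (1.79%), and in Xcr1-led dendritic cells, of the cross-presenting kind, 37 of 8729 (0.424%). In Fscn1-led cells 34 to 106 genes were called when any library other than naive D was left out, fewest without fixed draining A, and 40 with at most 10% mitochondrial UMIs. Cxcl9, a chemokine that interferon-gamma induces, had 11.4, 8.13 and 6.32 CPM in Fscn1-led cells of fixed draining libraries, against 61.2, 39.0, 56.9 and 11.8 CPM in naive libraries (log2 fold change -2.26 ± 0.37, edgeR adjusted p = 0.0013). Irf7 had 64.8, 74.8 and 80.4 CPM in Xcr1-led cells of fixed draining libraries, against 184, 149.6, 177 and 159.9 CPM in naive libraries (-1.21 ± 0.14, edgeR adjusted p = 6.8e-06). Of the 12 listed type I interferon-stimulated genes measured in each, 2 fell in Fscn1-led cells (median -0.50) and 3 in Xcr1-led cells (-1.14), and none rose. Slc7a11, the cystine transporter, rose in Fscn1-led cells, with 192, 174 and 172 CPM in fixed draining libraries, against 98.8, 105, 107 and 102 CPM in naive libraries (0.80 ± 0.12, edgeR adjusted p = 0.00025).

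The pericyte class, also added after the data had been seen, had 221 of 9414 genes called (2.35%). Without the 10 keratin-positive cells described here the count was 60, without marked doublets it was 56, and without fixed draining A, fixed draining B, naive C or naive A it was 65, 97, 143 or 145. Its Cxcl13 had 15392, 13917 and 12338 CPM in fixed draining libraries, against 8307, 8602, 6404 and 7414 CPM in naive libraries (log2 fold change 0.85 ± 0.17, edgeR adjusted p = 0.0053). In FDC-like cells the mean of Cxcl13 was 19617.3 CPM in fixed draining and 26223.5 CPM in naive libraries. The part of free RNA or mixed cells in the pericyte values was not tested. Krt5, a keratin of basal and myoepithelial cells, had 142, 182 and 74.4 CPM in fixed draining libraries, against 0 CPM in each naive library. Of the 215 fixed draining cells of the class, 10 held 10 or more UMIs of Krt5, Krt14 and Krt17, of which 4, 4 and 2 were in libraries A, B and C, and of the 505 naive cells 0 did. Live draining libraries had 2, 2 and 3 such cells. Fixed non-draining libraries, and those of nodes opposite a live tumor, had 0 in each. Those 10 cells held 224 UMIs of Krt5, 222 of Krt14 and 1275 of Acta2, a smooth muscle actin, and none of the pericyte genes Notch3 and Rgs5. Epcam, an epithelial adhesion gene, was found in 90% of them, Krt8 in 100% and Krt18 in 10%. Trp63, Oxtr and Lgals7 were each found in 100% of them. In the other 205 fixed draining cells of the class, these were found in 2.44%, 0% and 0.976%.

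Some genes moved in most classes. The mitochondrial ribosomal RNA mt-Rnr2 was called higher in fixed draining nodes in 9 of the 12 classes, with log2 fold changes there of 0.59 to 1.38, and mt-Rnr1 was called higher in 8 (0.40 to 1.02). mt-Nd3, a subunit of complex I, was called higher in 7 classes (0.76 to 2.19), whereas mt-Atp6, a subunit of ATP synthase, was called lower in 5 (-1.40 to -1.06). Of other mitochondrial transcripts, mt-Nd2 and mt-Nd4 were each called lower in 5 classes and higher in 1, and mt-Co1 and mt-Cytb lower in 3 each. Erdr1 was called higher in 8 classes (0.66 to 1.31) and Rn7sk, a nuclear regulatory RNA, in 7 (0.52 to 0.89). Gm8696 was called lower in 8 classes (-3.17 to -0.84) and Gm10073 in 7 (-2.02 to -1.21). The median mitochondrial share of kept cells was also higher in fixed draining libraries, as given at the start, and its part in these changes was not tested.

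Shares of the enriched suspension differed for several cell types. FDC-like cells were 5.81%, 5.04% and 4.29% of fibroblastic cells in fixed draining libraries, against 1.79%, 2.18%, 2.09% and 2.65% in naive libraries (log2 fold change 1.23 ± 0.18, edgeR on cell numbers, adjusted p = 7.9e-05), which rests on 53, 46 and 37 cells against 20, 18, 19 and 21 cells. Every fixed draining library was above every naive one in this FDC-like share. Fibroblastic clusters of 582 and 155 cells in the whole series also scored highest for FDC markers but were left unnamed. Among all cells, the cluster led by Cxcl13, Mfge8 and Cr2 held 92, 74 and 74 cells in fixed draining libraries. In naive libraries it held 72, 39, 135 and 46 cells, most in naive C. The part of the naming of clusters in the FDC-like share was not tested. Of 24 shares tested, 12 were called (50%), and 12 did not overlap between the groups (50%). TRC-like cells were 34.4%, 31.3% and 32.3% of fibroblastic cells in fixed draining libraries, against 20.1%, 25.4%, 20.3% and 23.8% in naive libraries (0.55 ± 0.08, edgeR adjusted p = 7.9e-05). In the same denominator, MedRC-like cells were 24.8%, 27.7% and 26.2% in fixed draining libraries, against 35.7%, 38.6%, 34.5% and 42.4% in naive libraries (-0.52 ± 0.09, edgeR adjusted p = 0.00012), and shares of one denominator are not independent of each other. MRC-like (-0.31, edgeR adjusted p = 0.16) and ActSC-like shares (-0.27, edgeR adjusted p = 0.35) did not pass. LECs were 29.9%, 28.1% and 28.1% of kept cells in fixed draining libraries, against 22.6%, 19.1%, 22.4% and 18.6% in naive libraries (0.47 ± 0.07, edgeR adjusted p = 7.9e-05). Within LECs, cLEC-like cells were 43.5%, 43.1% and 40.4% in fixed draining libraries, against 32.3%, 34.5%, 31.6% and 40.1% in naive libraries (0.30 ± 0.08, edgeR adjusted p = 0.0050).

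Plasma cells were 1.03%, 1.13% and 0.956% of kept cells in fixed draining libraries, against 0.333%, 0.618%, 0.566% and 0.567% in naive libraries (log2 fold change 1.04 ± 0.36, edgeR adjusted p = 0.023). Dividing cells were 0.352%, 0.178% and 0.179% in fixed draining libraries, against 0.0624%, 0.0926%, 0.0894% and 0.0315% in naive libraries (1.77 ± 0.50, edgeR adjusted p = 0.0081), from only 14, 6 and 6 cells against 3, 3, 3 and 1. T and NK cells were lower, at 1.66%, 2.05% and 1.91% of kept cells in fixed draining libraries, against 2.50%, 2.87%, 3.10% and 3.15% in naive libraries (-0.63 ± 0.11, edgeR adjusted p = 0.00016). A shallow cluster led by T cell genes was left unnamed for its depth, and it held 113, 131 and 92 cells in fixed draining libraries, against 278, 269, 211 and 280 cells in naive libraries. Pericytes were 2.14%, 1.96% and 1.91% in fixed draining libraries, against 4.16%, 2.93%, 3.31% and 3.12% in naive libraries (-0.77 ± 0.15, edgeR adjusted p = 0.00043). BECs were lower as well (-1.07, edgeR adjusted p = 0.019), with naive library A, at 4.89%, far above the other naive libraries at 1.51% to 1.79%. B cells were 7.18%, 5.97% and 8.22% in fixed draining libraries, against 7.68%, 9.23%, 8.31% and 9.07% in naive libraries (-0.26, edgeR adjusted p = 0.037), and these overlapped.

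Fixed non-draining libraries, shown here as values with no test, had 5.88%, 5.51% and 8.47% FDC-like and 34.0%, 32.6% and 28.6% TRC-like cells among fibroblastic cells. They had 34.4%, 35.2% and 32.5% LECs, 1.40%, 1.29% and 1.60% plasma cells, 0.168%, 0.405% and 0.376% dividing cells and 2.07%, 1.70% and 1.60% T and NK cells among kept cells. For FDC-like cells, TRC-like cells, LECs, plasma cells, dividing cells and T and NK cells, these libraries thus lay on the same side of all naive libraries as the fixed draining ones. Within LECs, cLEC-like cells were 36.2%, 33.3% and 38.4%, inside the range of naive libraries.

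An exact permutation test of 3 against 4 libraries has 35 splits and cannot give a two-sided p under 0.0571, the value of every share whose groups did not overlap. The shares follow selection for PDPN, which B, T and plasma cells largely lack, and the mitochondrial limit removed more barcodes from fixed draining than from naive libraries. In sums over libraries, fewer cells of a kind and less RNA per cell cannot be told apart, which applies to the values of whole libraries given here. Genes that define the MedRC-like and MRC-like clusters were among those called in these classes, so the sizes of these classes are not read as results. ActSC-like cells (activated stromal cells, named here from early response genes) had no gene test. Their marker Fosb was called higher in 4 of the 12 classes, and their share is not read as a result either. In cLEC-like cells 1 of 29 leading genes, Fgl2, was called.

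**Figure D5:**
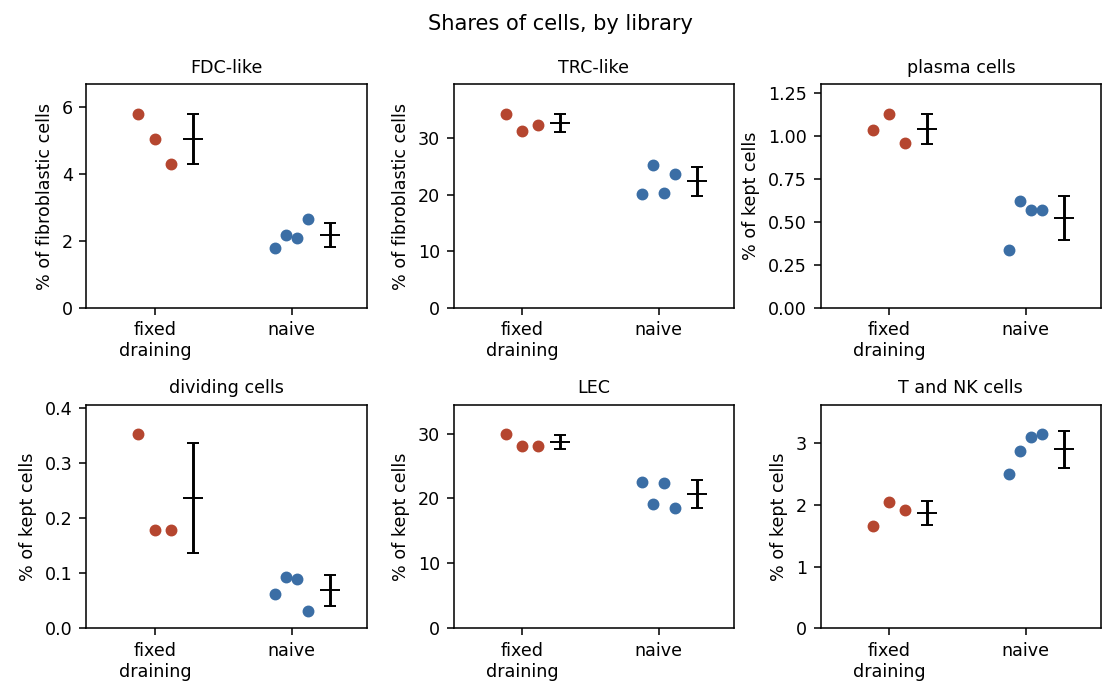
Share in percent (vertical axis, each panel starting at 0) of FDC-like and TRC-like cells among fibroblastic cells, and of plasma cells, dividing cells, LECs and T and NK cells among kept cells, with 1 point per library, fixed draining left of naive, and the mean with bars of 1 SD beside the points. FDC-like cells lie between 4.29% and 5.81% in fixed draining and between 1.79% and 2.65% in naive libraries, and T and NK cells are the one class of the 6 that is lower in fixed draining libraries.

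Library codes in the labels end in 09 for fixed draining A and B and naive A, and in 06 for fixed draining C and naive B, C and D, and what the ending stands for was not given in the sources used here. The median difference of the heat shock list, on log2(CPM + 1) levels, was -0.70 among libraries ending in 09 and -0.81 among those ending in 06 in cLEC-like cells, and -0.76 and -0.96 in macrophages and monocytes. For the type I interferon-stimulated list these were -0.33 and -0.70 in cLEC-like cells, -0.59 and -0.78 in MedLEC-like cells, and -0.32 and -1.27 in macrophages and monocytes. Of the 485 genes called in MedRC-like cells, 484 kept their direction among libraries ending in 09 and 485 among those ending in 06, where these are libraries of the same fit and give no separate test.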

How the data were processed

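The authors deposited raw counts, that is UMIs of each gene in each barcode, and their processing notes name Cell Ranger 3.0.1 and the build mm10. These counts were used as deposited. Kept barcodes had 200 to 6000 genes and no more than 30% of UMIs from mitochondrial genes, as in the study's methods. Cells of all 16 libraries went through SCTransform (sctransform 0.4.2) and Louvain clustering in Seurat 5.3.0 (R 4.3.3), and fibroblastic cells, LECs, and T and NK cells were clustered again. Clusters were named from a list of markers, and how markers were scored was decided with the clusters in view. A cluster stayed unnamed where its cells were shallow, where mitochondrial genes led it, or where markers of another class did.

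UMIs were summed per library and class with at least 10 cells and tested with edgeR 4.0.16 (TMM, filterByExpr, quasi-likelihood fit over all 16 libraries, Benjamini-Hochberg adjustment over all genes tested). CPM are per library and class. For shares, edgeR was run on numbers of cells, next to an exact permutation test. The cells and gene lists were chosen with earlier results of these data known. By the rule for named genes, the text draws per class on the 8 strongest rises and 8 strongest falls that were called, did not overlap between the groups and averaged a log2 CPM of 5 or more, on up to 4 list members of smallest p, and on 12 genes that the study names. Any other gene was chosen after its values were seen. The letters of the libraries were not taken as pairs, and for fixed draining against fixed non-draining nodes they were also tried as a block. Alternatives were DESeq2 1.42.0, limma 3.58.1 for shares, no filter on low counts, the replicate letters or the code endings as a block, only the 7 libraries, at most 10% mitochondrial UMIs, LogNormalize in place of SCTransform, and each library left out in turn. Scrublet (scanpy 1.11.5, Python 3.11.15, expected rate 0.06) marked 44 cells by its automatic threshold, too few to have worked, so the top-ranked cells of each library were marked and left out in 1 alternative only. The fits were tested on simulated counts with 200 genes changed. The changed genes were drawn only from those above a floor of mean CPM, so recovery below it is not known. The simulated counts held no effect of a batch or of a mix of clusters. Recovery of 2-fold changes was 97% in cLEC-like, 89% in MedRC-like, 75% in MRC-like and 60% in B cells. Unchanged genes made up 7.51%, 3.08%, 1.74% and 3.16% of those called there, in the same order. Some single-gene results are not reported here. Figures were drawn with matplotlib 3.10.9.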

Additional observations from a re-analysis of the deposited data

Results flagged for a closer look

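Among the 4 naive libraries, 10 of 184 values examined had 1 library far from the other 3, by the gap to its nearest neighbour over the whole range (above Dixon's critical value), and chance gives about 1 in 20. Naive A had 4806 kept cells, against 3177 to 3356 in the other naive libraries, and a BEC share of 4.89%, against 1.51% to 1.79%. Naive B had an ActSC-like share of 4.00% of fibroblastic cells, against 3.08% to 3.16%, Mmp12 at 72.1 CPM in macrophages and monocytes, against 34.2 to 39.5, and Irgm1, an interferon-induced GTPase, at 157 CPM in cLEC-like cells, against 101 to 105. It also had Krt14 at 1.70 CPM in pericytes, against 0 in the others. Naive C had Fosb at 39.2 CPM in TRC-like cells, against 24.3 to 25.3, and Bst2 at 734 CPM in macrophages and monocytes, against 552 to 582. Naive D had Carmn at 38.7 CPM in MedRC-like cells, against 49.6 to 49.9, and Timp3, a metalloprotease inhibitor, at 60.0 CPM, against 47.9 to 48.5. The direction of these differences between fixed draining and naive nodes does not rest on the library that stands apart for Carmn, Bst2, Mmp12 and the BEC share, where all fixed draining libraries lie on one side of the other 3 naive libraries.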

How the results depend on the processing

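The 165 named values kept their direction under every alternative run, except 5. Lpar1 (-1.20) and Cd44 (-0.73) in MedLEC-like cells were lower in the clusters led by Marco, Ighg2b in B cells (-0.18) and Mmp12 in macrophages and monocytes (-0.54) were lower with LogNormalize, and Dcn in Xcr1-led dendritic cells was 0.31 without marked doublets. Of the 165, 70 were called under every alternative, and the calls lost were 59, 45 and 38 without fixed draining A, B and C, and 25, 19, 30 and 20 without naive A, B, C and D. In classes of few cells, differences may not be detectable at this depth. The cause of each change below was not tested, beyond the fewer cells of single clusters and the fewer libraries when one is left out.

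Counts of called genes that moved by over 1.5 times are given here. DESeq2 called 53 genes in TRC-like, 96 in PRC-like, 89 in B cells, 339 in macrophages and monocytes, 24 in Xcr1-led dendritic cells, 14 in plasma cells and 0 in FDC-like cells. Without a filter on low counts the numbers were 180 in TRC-like, 43 in MRC-like, 186 in PRC-like, 168 in fLEC-like, 446 in MedLEC-like, 63 in BECs, 142 in B cells, 59 in T cells, 503 in macrophages and monocytes, 347 in Fscn1-led and 111 in Xcr1-led dendritic cells, 514 in pericytes, 15 in FDC-like and 74 in plasma cells. With only the 7 libraries they were 162 in TRC-like, 46 in MRC-like, 89 in PRC-like, 416 in MedLEC-like, 126 in CorLEC-like, 1 in BECs, 480 in Fscn1-led dendritic cells, 337 in pericytes, 9 in FDC-like and 8 in plasma cells. With the code ending as a block they were 43 in TRC-like, 13 in MRC-like, 23 in PRC-like, 124 in cLEC-like, 23 in CorLEC-like, 3 in BECs, 3 in T cells, 133 in macrophages and monocytes, 115 in pericytes and 3 in FDC-like cells. With at most 10% mitochondrial UMIs they were 267 in MedRC-like, 12 in CorLEC-like, 60 in macrophages and monocytes, 40 in Fscn1-led and 24 in Xcr1-led dendritic cells and 3 in plasma cells. LogNormalize gave 265 in MedRC-like, 69 in PRC-like, 22 in B cells, 2 in FDC-like and 14 in plasma cells. Without marked doublets, 21 were called in Xcr1-led dendritic cells, 56 in pericytes and 4 in FDC-like cells, and without keratin-positive cells 60 in pericytes. The Marco-led clusters alone had 4 in MedLEC-like cells, and the C1qa-led cluster alone 24 in macrophages and monocytes. These last 3 settings, and all those of the added classes, were chosen after seeing the data.

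Libraries with the same letter deviated together little on average (mean correlation of deviations 0.02, against -0.01 for other pairs), so for these groups the letters were not taken as pairs. By class the mean for same letters ran from -0.011 in T cells to 0.115 in FDC-like cells, where 1 of 3 pairs was at 0.039. In cLEC-like cells the same-letter pairs of fixed draining and naive libraries were at 0.028 to 0.047, and other pairs averaged -0.013. Between fixed draining and fixed non-draining libraries, where a letter could stand for 1 mouse, the mean was 0.004 for same letters and -0.002 for others. By class the mean for same letters ran from -0.084 in B cells to 0.053 in cLEC-like cells. In cLEC-like cells the same-letter pairs were at 0.035 to 0.089, and 74 genes were called with the letters as a block, against 57 without. In an alternative chosen after seeing the data, the letters as a block moved that comparison's calls by over 1.5 times to 5 in TRC-like, 28 in MedRC-like, 2 in MRC-like, 1 in PRC-like and 28 in fLEC-like cells, and left 15 of 17 type I interferon stimulated genes lower in macrophages and monocytes, and 0 of 17 in MedLEC-like cells. Against naive nodes, with the letters as a replicate block, counts moved by over 1.5 times to 23 in B cells, 140 in macrophages and monocytes and 15 in plasma cells, and stayed within that elsewhere.

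Leaving out each library in turn gave 187 to 415 called genes in MedRC-like (lowest without fixed draining B), 55 to 291 in macrophages and monocytes (without fixed draining B), 103 to 173 in cLEC-like (without fixed draining B), 37 to 114 in MedLEC-like, 42 to 99 in fLEC-like, 45 to 99 in TRC-like and 20 to 35 in PRC-like cells (each without fixed draining A), 7 to 29 in CorLEC-like (without fixed draining B), 7 to 16 in MRC-like (without naive C), 12 to 43 in B cells (without fixed draining C), 4 to 14 in T cells and 0 to 1 in BECs. In the added classes it gave 34 to 142 in Fscn1-led and 21 to 40 in Xcr1-led dendritic cells, 65 to 268 in pericytes, 1 to 5 in FDC-like and 1 to 17 in plasma cells. Of the 12 called shares, 8 to 12 were called. With limma for shares in place of edgeR, 10 of the 12 stayed called, and 2 kept their direction but missed the threshold.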
